A study of Arabidopsis thaliana with 9 samples.

Results

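Pseudogenes with a measurable transcript level were described in sepals of Arabidopsis thaliana, the outer organs that enclose the flower bud. The members are the rows of the deposited gene table whose biotype is pseudogene and whose raw read counts sum to at least 200 over 9 RNA-seq libraries. There were 90 members among 3903 pseudogene rows and 38299 rows in all. The remaining pseudogene rows comprised 480 with some counts but a sum under 200 and 3333 with no count in any library. The members were thus chosen by their measured counts, and their being expressed is not a result. Just inside the threshold lay AT3G28315 with 201 counts and AT4G01980 with 213, and just outside it AT1G46552 with 193 and AT3G15310 with 184. AT3G43828 sums to 144 counts and is not a member, but is described beside AT3G28315 because it has a similar distribution over the genotypes.

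The libraries came from the mutant atml1-3, the mutant gir1-1 and wild-type Col-0 (WT), with 3 libraries per genotype. ATML1 encodes an epidermal HD-ZIP IV transcription factor, and the series title places it with GIR1 and the co-repressor TPL in one repression module. For each library, 50 closed buds of stage 12 gave 200 sepals, and the plants were kept at 23 °C in continuous light. The labels name no further allele or treatment, and give neither the kind of lesion nor the parental accession of the mutants. The labels also do not say whether the libraries of a genotype came from separate plants, so p-values measure the spread between these libraries, which may be technical. In bulk tissue, fewer cells of a type and less RNA per cell cannot be told apart.

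Most annotated pseudogenes of Arabidopsis in this biotype are remnants of transposable elements. Copia and gypsy elements are retrotransposons with long terminal repeats that are copied through RNA by a reverse transcriptase, and non-LTR elements use a related enzyme without those repeats. MULE and hAT elements move as DNA with a transposase, and some of their descendants, such as the MUSTANG (MUG) genes and the hAT-derived DAYSLEEPER, have been taken into service as plant genes. Sadhu elements are short non-autonomous retroposons of Arabidopsis. Plants normally keep such sequences silent by DNA methylation, repressive histone marks and small RNAs, most densely around the centromeres. Because copies of a family resemble each other, a read counted for one copy can have come from another.

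The degree of this ambiguity differed between members, and 4 pairs of a member with its closest other gene serve as examples. Other members had a less similar closest gene, such as AT1G27285 at 71.9% identity, or none. Each pair below gives 100 bases of both copies from TAIR10.1, 5′ to 3′ on the gene's own strand, with capitals at the positions where the copies differ. The first pair belongs to AT3G28315, the copia-like member detected in a single genotype, and its closest copy AT1G32590 (82.7% identity over 4013 aligned positions, 16 differences in the window).
AT3G28315, chr3:10579434-10579533, minus strand: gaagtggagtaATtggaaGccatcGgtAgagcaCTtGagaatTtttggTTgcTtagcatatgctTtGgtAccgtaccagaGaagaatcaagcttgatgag
AT1G32590, chr1:11791720-11791819, plus strand: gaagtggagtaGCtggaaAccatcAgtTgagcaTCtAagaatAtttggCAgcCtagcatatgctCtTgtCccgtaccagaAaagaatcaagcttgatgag
The second pair belongs to AT4G04410, the copia-like member with the smallest adjusted p of any other member, and AT1G43775 (90.1% identity over 4232 positions, 13 differences).
AT4G04410, chr4:2191581-2191680, plus strand: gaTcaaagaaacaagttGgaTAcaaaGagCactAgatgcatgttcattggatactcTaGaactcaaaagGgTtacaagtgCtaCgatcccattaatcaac
AT1G43775, chr1:16554370-16554469, minus strand: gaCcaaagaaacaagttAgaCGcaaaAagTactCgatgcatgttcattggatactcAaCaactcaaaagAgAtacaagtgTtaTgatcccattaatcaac
The third pair, AT5G13205 and AT1G11265, is the most alike (99.6% identity over 4059 positions), and the window has 0 differences.
AT5G13205, chr5:4210513-4210612, minus strand: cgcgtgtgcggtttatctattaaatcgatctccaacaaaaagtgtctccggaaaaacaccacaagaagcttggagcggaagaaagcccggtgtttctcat
AT1G11265, chr1:3783214-3783313, plus strand: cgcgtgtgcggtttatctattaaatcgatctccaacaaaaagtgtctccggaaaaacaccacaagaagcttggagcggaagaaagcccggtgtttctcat
The fourth pair, AT4G01980 and AT2G22710, are both members (98.8% identity over 882 positions), with 1 difference in the window.
AT4G01980, chr4:863742-863841, minus strand: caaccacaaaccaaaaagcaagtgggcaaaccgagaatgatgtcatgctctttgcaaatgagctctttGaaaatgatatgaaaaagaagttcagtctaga
AT2G22710, chr2:9654042-9654141, plus strand: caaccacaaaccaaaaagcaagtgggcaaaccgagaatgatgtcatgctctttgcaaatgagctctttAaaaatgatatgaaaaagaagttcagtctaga

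Over all members the shared sequence was measured as the percentage of a gene's exonic words of 50 bases that also occur elsewhere in the genome on either strand. The median member had 0.237% of its words elsewhere, and 40 of the 90 members had none. For 73 members the share was under 10%, and these include 19 of the 20 members with the most counts. By comparison the median was 9.20% for the pseudogene rows with no count and 3.799% for those with some counts under 200. These sets were formed by counts, which depend on how multiply mapped reads were handled, so this comparison is a description only. The share exceeded 50% for 5 members, which were AT5G13205 (88.7%), AT5G28263 (83.2%), AT3G29120 (73.0%), AT4G01980 (52.3%) and AT4G10580 (50.9%). The counts of these 5 cannot be assigned to one copy with certainty, and the handling of multiply mapped reads by the authors is not given in the sources used here. A related gene with an alignment of at least 100 bases was found for 75 members. That closest gene was a pseudogene for 67 members and protein-coding for 7, and had no count in any library for 38. For AT5G13205 the near-identical AT1G11265 summed to 26 counts over the 9 libraries.

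**Figure D1:**
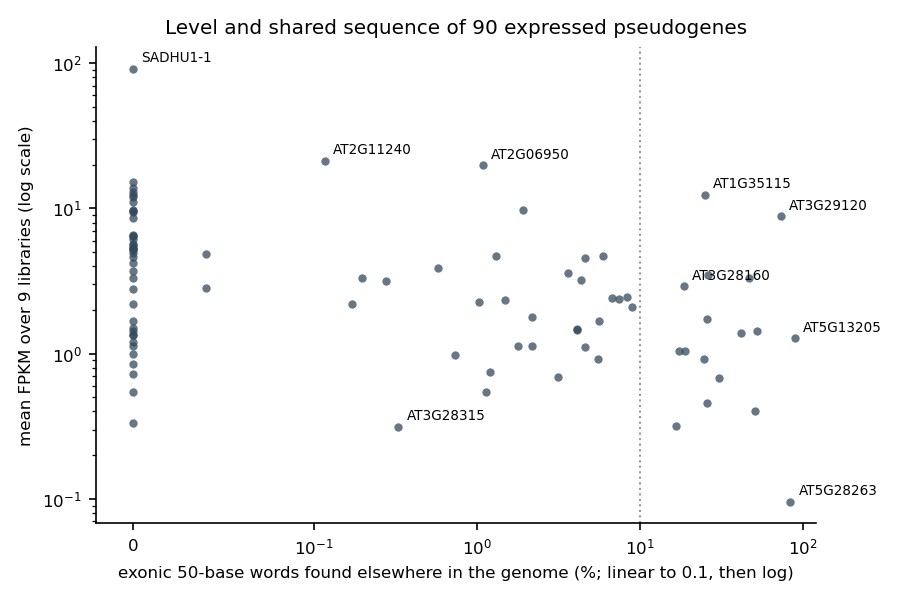
Mean level over the 9 libraries in FPKM (vertical, log scale) against the percentage of exonic 50-base words found elsewhere in the genome (horizontal, linear to 0.1 and then log) for the 90 members, with a dotted line at 10%. The highest level, that of SADHU1-1, belongs to a member with no shared word, and AT5G13205 and AT5G28263 lie farthest to the right.

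Exons of another annotated gene overlapped 12 members, on the same strand for 2 and on the other strand for 10, and never over more than 50% of a member. The use of strand in the counting is not stated, so reads in these stretches are uncertain. The 4 members with the most counts among the 12 were overlapped by genes with 0 counts in every library, for example AT2G11240 by AT2G11215 and AT2G11225 over 17.4% of its length. AT2G03540 shared 45.7% of its exonic bases with UPS2, a ureide permease gene with 4190 counts, and AT5G50315 shared 30.4% with ELO3, an elongator subunit gene with 4399 counts on the other strand. A higher-expressed gene ended within 500 bases upstream on the same strand for 12 members, some of which are also among the overlapped ones. One of these was AT4G16870, a copia-like member with a mean of 11.1 FPKM, behind the downy mildew resistance gene RPP4 with 22.7 FPKM. Whether reads of such members continue from the gene before them was not tested.

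By the deposited descriptions and names, 58 of the 90 members fall into a transposable element class, and they held 81.1% of the members' counts. Copia-like polyproteins made up 28 members with 31.8% of the counts. Another 8 members matched other reverse transcriptases, ribonuclease H or the mitochondrial proteins derived from them, with 20.5% of the counts. MUSTANG or MULE transposases comprised 6 members (9.32% of counts), hAT transposases 5 (6.28%), gypsy-like polyproteins 5 (2.28%), Sadhu elements 4 (10.5%) and gag-domain matches alone 2 (0.495%). A further 12 members had another protein match, such as the glycine-rich cell wall protein row AT3G17050 and the F-box/kelch-like AT1G11150. No protein match was given for 20 members, which held 12.5% of the counts.

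Levels were compared per length, as FPKM (fragments scaled to transcript length and to the size of the library, as the authors deposited them). The mean FPKM over the 9 libraries lay between 0.0956 (AT5G28263) and 91.7 (SADHU1-1), with a median of 2.61. The median of the 16871 protein-coding rows with the same minimum of 200 counts was 10.99. At least 10 FPKM was reached by 10 members, and 17 were below 1. By class, the median was highest for the Sadhu elements at 7.41 FPKM and next for the MUSTANG or MULE transposases at 5.50 FPKM. It was 3.73 FPKM for the hAT, 2.23 FPKM for the copia-like and 0.686 FPKM for the gypsy-like members. With 2 to 28 members per class and ranges that overlap, this order is a description only.

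**Figure D2:**
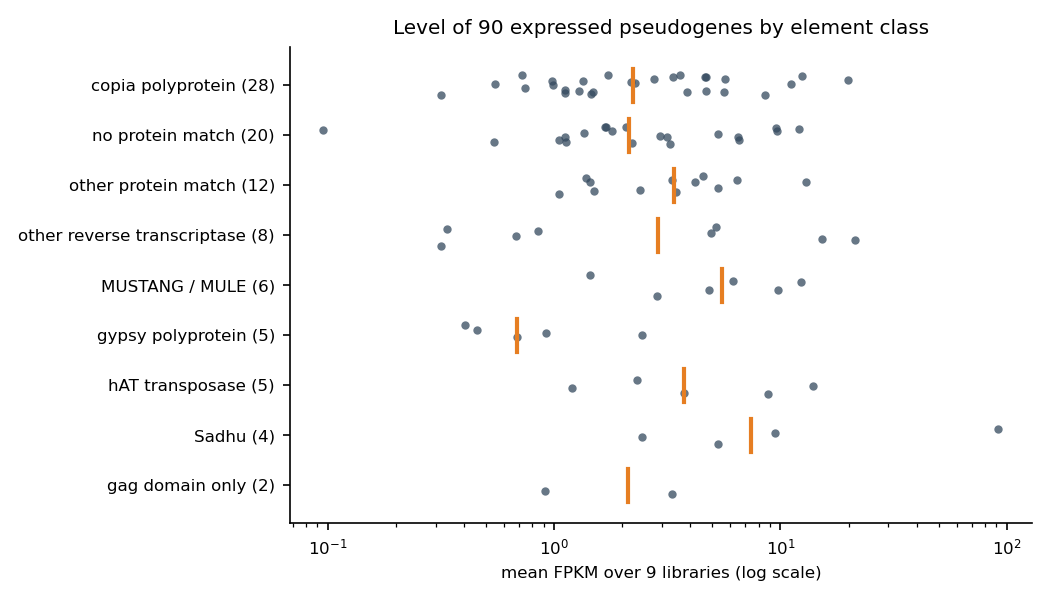
Mean FPKM over the 9 libraries (horizontal, log scale) for each of the 90 members (points), by element class with the number of members in parentheses, and orange bars at the class medians. SADHU1-1 stands alone near 91.7 FPKM, and the 5 gypsy-like members lie at 2.43 FPKM or below.

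Counts were concentrated in few members. The highest, AT2G11240, held 10.9% of all member counts, the highest 3 held 26.2%, the highest 10 held 50.5% and the highest 20 held 68.0%. SADHU1-1 (AT2G10410, chr2:4005995-4007044) had 123, 98.7 and 98.7 FPKM in atml1-3, 83.7, 82.8 and 111 FPKM in gir1-1 and 65.1, 80.9 and 81.2 FPKM in WT. The atml1-3 and WT libraries did not overlap, and the gir1-1 libraries lay above all WT libraries as well. AT2G11240 (chr2:4477686-4483748), a row with a ribonuclease H match of the kind found in non-LTR elements, had 20.2, 20.4 and 23.5 FPKM in atml1-3, 17.1, 23.5 and 18.3 FPKM in gir1-1 and 18.9, 21.4 and 28.9 FPKM in WT. Its 3 genotypes overlapped throughout. AT2G06950 (chr2:2859226-2863434), a copia-like row, had 35.9, 21.5 and 23.1 FPKM in atml1-3, 12.5, 5.40 and 13.8 FPKM in gir1-1 and 13.6, 25.2 and 28.8 FPKM in WT. All its gir1-1 libraries lay below those of atml1-3, while the lowest WT library was within the range of gir1-1.

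For the other members among the 12 with the highest CPM, AT4G08110 excepted, the libraries of both mutants overlapped those of WT. AT5G55896, a reverse-transcriptase-like row, averaged 14.5 ± 0.840 FPKM in atml1-3, 16.2 ± 0.333 in gir1-1 and 15.2 ± 4.24 in WT (SD, n = 3 each). AT1G80020, whose best match is the hAT-derived DAYSLEEPER, averaged 11.9 ± 0.585 FPKM in atml1-3, 13.8 ± 0.631 in gir1-1 and 15.8 ± 4.24 in WT. The MUSTANG gene MUG1 averaged 9.03 ± 1.30 FPKM in atml1-3, 9.17 ± 0.767 in gir1-1 and 11.0 ± 1.83 in WT. MUG4 of the same family averaged 10.9 ± 1.69 FPKM in atml1-3, 12.8 ± 0.378 in gir1-1 and 13.2 ± 2.59 in WT. The remaining 5, AT4G16870, AT1G35115, AT5G23955, AT4G08110 and AT2G23330, had genotype means between 4.39 and 13.7 FPKM. The steadiest of all members were AT2G13970 and AT1G35115, whose highest library was 1.36 and 1.39 times their lowest. The widest, apart from AT3G28315, were the copia-like AT4G28900 with 18.3 times, AT3G28160 with 13.8 times and AT4G01975 with 9.64 times.

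Members occurred on all 5 chromosomes, with 18, 14, 21, 14 and 23 on chromosomes 1 to 5. Their surroundings were described as the percentage of pseudogene rows among all rows within 500 kb. The median member had 6.70% pseudogene rows around it, against 28.4% for the pseudogene rows with some counts under 200 and 58.7% for those with no count. The value was under 10% for 49 members (54.4%), 34.4% of the rows with some counts under 200 and 12.8% of the rows with no count. Protein-coding rows with at least 200 counts had a median of 1.49%. A minority of members lay in surroundings as rich in pseudogenes as those of the silent rows, including the highest by counts, AT2G11240, at 65.5%. Only 5 pairs of members lay within 10 kb of each other, the closest being AT2G13970 and AT2G13975, 82 bases apart on opposite strands.

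**Figure D3:**
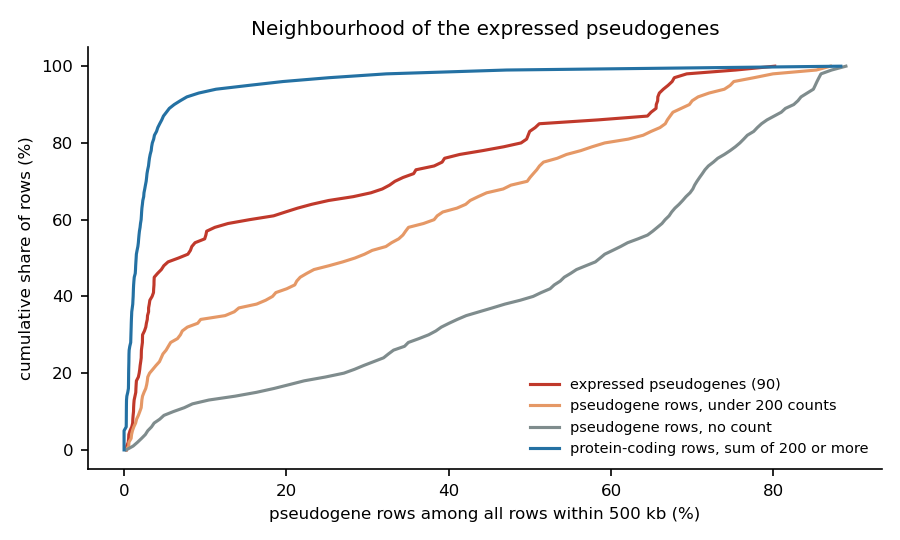
Cumulative percentage of rows (vertical) against the percentage of pseudogene rows among all rows within 500 kb (horizontal), for members, for pseudogene rows with some counts under 200, for those with no count, and for protein-coding rows with at least 200 counts. The members lie between the protein-coding rows and the silent pseudogene rows, with medians of 6.70%, 1.49% and 58.7% for these 3 sets.

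Before the genotypes were compared, the libraries and labels were checked. The libraries held between 15328056 and 20148807 counts. The GIR1 gene had 12, 10 and 7 counts in gir1-1 and 26, 36 and 73 in WT, and also 14, 10 and 17 in atml1-3. ATML1 had 124, 345 and 266 counts in atml1-3 and 522, 537 and 872 in WT. The 6 sepal and A or E class markers (AP1, AP2 and SEP1 to SEP4) summed to between 755 and 972 CPM (counts scaled to a common library size after TMM normalization) in every library. Markers of other cell types were also present in part. The 2 nectary markers CRC and SWEET9 summed to between 1.19 and 3.04 CPM in atml1-3, 0 and 0.0982 CPM in gir1-1 and 0.940 and 4.75 CPM in WT. The 2 stomatal markers FAMA and MUTE summed to between 59.6 and 80.8 CPM in atml1-3, 45.9 and 65.6 CPM in gir1-1 and 73.5 and 96.6 CPM in WT. The 5 stamen and pollen markers summed to between 35.3 and 103 CPM in atml1-3, 42.7 and 163 CPM in gir1-1 and 34.1 and 152 CPM in WT, and the trichome marker GL1 was at or near 0. The petal and stamen markers AP3 and PI summed to between 47.8 and 69.9 CPM in atml1-3, 29.0 and 46.8 CPM in gir1-1 and 23.5 and 48.9 CPM in WT. The 3 carpel markers summed to between 23.5 and 31.5 CPM in atml1-3, 15.96 and 19.6 CPM in gir1-1 and 11.9 and 25.1 CPM in WT. Apart from the nectary sum, these sums rested mainly on 1 gene each. Over the 9 libraries, VGD1 lay between 32.9 and 162 CPM, and AG, SPL, AMS and MS1 at 1.79 CPM or below. FAMA reached 45.8 CPM or more and MUTE 0.547 CPM or less. AP3 reached 21.3 CPM or more and PI 5.61 CPM or less. SPT lay between 8.08 and 22.3 CPM, SHP1 between 2.79 and 8.62 CPM and SHP2 at 1.25 CPM or below. The part of these cell types in the differences below was not tested.

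Taken as a sum, the 90 members held similar small shares of each library. The share was 0.132%, 0.120% and 0.122% in atml1-3, 0.110%, 0.109% and 0.121% in gir1-1 and 0.115%, 0.107% and 0.132% in WT. The means were 0.125 ± 0.00689% in atml1-3, 0.113 ± 0.00644% in gir1-1 and 0.118 ± 0.0126% in WT (SD, n = 3 each). The two-sided exact permutation test over libraries gave p = 0.4 for atml1-3 against WT, 0.7 for gir1-1 against WT and 0.2 for atml1-3 against gir1-1, where the smallest p that 3 against 3 libraries allow is 0.1. Adjusted over these 3 tests by the Benjamini-Hochberg method, the exact p-values were 0.6, 0.7 and 0.6. These tests could thus not pass 0.05 in any comparison. The largest difference in means, 0.0114 percentage points for atml1-3 minus gir1-1, was larger than the SD within either genotype, and the libraries of both overlapped.

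Among single members, AT3G28315 stood out by its distribution, and was selected for it, so no p is given for it and its calls support nothing here. AT3G28315 lies at chr3:10577487-10581488 on the minus strand (TAIR10.1) and matches a copia-type polyprotein. It had 0 counts in all 3 atml1-3 libraries, 123, 51 and 27 counts in the gir1-1 libraries and 0 counts in all 3 WT libraries. In CPM these are 6.96, 3.11 and 1.33 in gir1-1, a mean of 3.798 ± 2.88 (SD, n = 3). With the floor of a library set at 3 counts, the gir1-1 mean was at least 22.2-fold higher than atml1-3 and at least 21.5-fold higher than WT. Without gir1-1 replicate 1, the library with 123 counts, the bounds were 12.99-fold over atml1-3 and 12.6-fold over WT. These bounds cover counting error only. The gir1-1 libraries themselves spanned a wide range, with the highest carrying 123 counts and the lowest 27.

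The genes on both sides of AT3G28315 had the same distribution. AT3G28310, 112 bases away at chr3:10576961-10577375, had 0 counts in every atml1-3 library, 15, 15 and 20 counts in gir1-1 and 0 in every WT library. AT3G28320, 343 bases away on the other side at chr3:10581831-10582784, had 0 counts in every atml1-3 library, 106, 10 and 22 in gir1-1 and 0 in every WT library. Both lie on the plus strand and are annotated as protein-coding, and the deposited descriptions give them the same protein entry, a UPF0496 protein named after both loci, whose function is unknown. The pseudogene thus sits between the 2 rows that share this entry. The next genes outward, AT3G28300 and AT3G28330, had 0 counts in all 9 libraries, while GATL10, 7459 bases away, had 274, 160 and 203 counts in atml1-3, 385, 85 and 527 in gir1-1 and 646, 399 and 446 in WT.

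**Figure D4:**
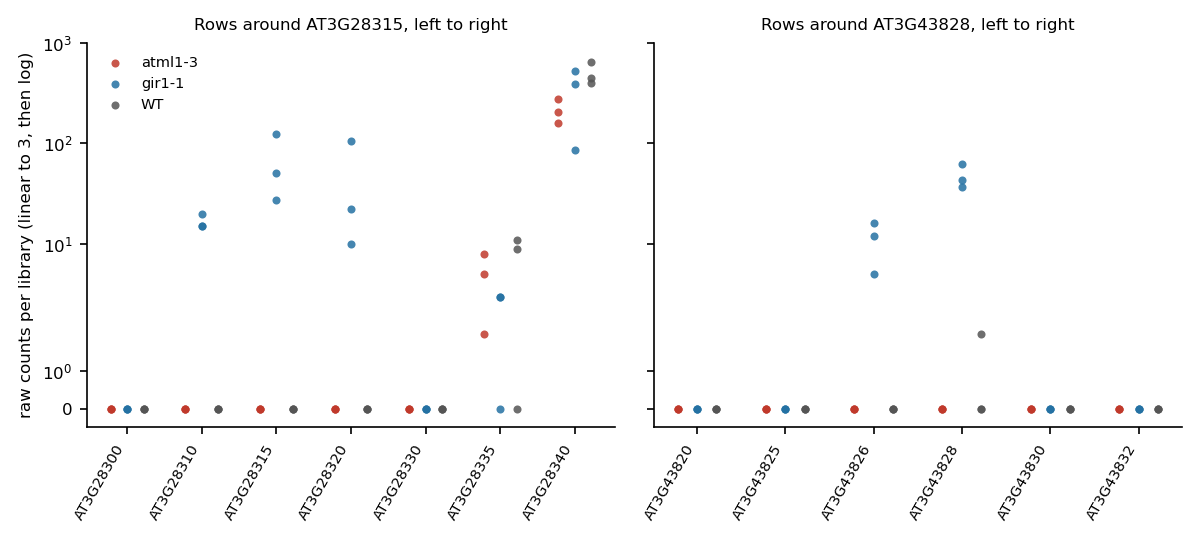
Raw counts per library (vertical, linear to 3 and then log) of the annotated coding and pseudogene rows around AT3G28315 (left) and AT3G43828 (right), in chromosomal order from left to right, with 3 libraries each of atml1-3, gir1-1 and WT. AT3G28310, AT3G28315 and AT3G28320 have counts in gir1-1 alone, and AT3G43826 and AT3G43828 have between 5 and 62 counts per gir1-1 library against at most 2 elsewhere.

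Annotated genes related to AT3G28315 held few or no counts. Only 0.329% of the 50-base words of AT3G28315 occur elsewhere in the genome, and its closest copy AT1G32590, whose window is printed above, had 0 counts in all libraries. All 4 related genes together had 0 counts in atml1-3, 0, 0 and 4 in gir1-1 and 1, 0 and 0 in WT. AT3G43828 (chr3:15677383-15678009, minus strand), a row with a transposase-associated domain, had 0 counts in every atml1-3 library, 62, 37 and 43 counts in gir1-1 and 2, 0 and 0 in WT. Its 12 related genes had 0 counts in every library. AT3G43826, a transcribed-pseudogene row 1551 bases away on the same strand, had 0 counts in every atml1-3 library, 12, 5 and 16 in gir1-1 and 0 in every WT library. The pseudogene rows on either side of this pair, AT3G43825 and AT3G43830, had 0 counts in all 9 libraries.

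Over the whole table, 5 rows had at least 10 counts in each gir1-1 library and 0 in the 6 libraries of the other genotypes, namely AT3G28310, AT3G28315, AT3G28320, AT1G62975 and AT1G73330. The same count was 0 for atml1-3 and 0 for WT. With a minimum of 3 counts it was 1 for atml1-3, 9 for gir1-1 and 1 for WT. Of the 90 members, 89 had a count in every library, and AT3G28315 was the exception. Among those 89, the lowest count in any library was 7, and 83 had at least 10 counts in every library.

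None of the 89 members other than AT3G28315 passed the edgeR quasi-likelihood test at a Benjamini-Hochberg adjusted p under 0.05 in any of the 3 comparisons. For atml1-3 against WT the count was 0 of 89 members against 0% of all 19174 genes tested. For gir1-1 against WT it was 0 of 89 against 0.0156%, and for atml1-3 against gir1-1 0 of 89 against 0.0834%. The median log2 fold changes of all 90 members were -0.02, 0.00 and -0.07 in the same order, beside -0.01, 0.00 and 0.00 over all genes tested. Without AT3G28315, DESeq2 called 0, 2 and 3 members in these comparisons, against 0.822%, 0.749% and 0.764% of all genes. The authors' deposited table has 0, 2 and 4 of the same 89 members with an adjusted p under 0.05, against 1.24%, 0.455% and 1.32% of all rows with an unadjusted p there.

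In atml1-3 against WT, 8 of the 89 members other than AT3G28315 had an unadjusted edgeR p under 0.05 (8.99%), against 11.7% of all genes tested. Of these, 5 were higher, against 5.5% of all genes, and 3 were lower, against 6.22%. The count depended on single libraries: it was 2 of 89 without WT replicate 1, where 7.85% of all genes had such a p, and 15 of 89 without WT replicate 3, where 15.3% had one. It was 4, 4 and 5 of 89 without atml1-3 replicates 1, 2 and 3, against 7.35%, 8.43% and 8.54% of all genes. The libraries of both genotypes did not overlap for 14 of the 89 (15.7%), against 18.5% of all genes. SADHU1-1 had the highest level among them, with CPM of 130, 105 and 104 in atml1-3 and 68.3, 85.4 and 85.4 in WT, a log2 fold change of 0.50 ± 0.17 (SE) and an edgeR adjusted p of 0.381. The copia-like AT3G62455 had CPM of 7.73, 4.97 and 4.41 in atml1-3 and 3.20, 2.49 and 3.52 in WT, a log2 fold change of 0.89 ± 0.31 with an edgeR adjusted p of 0.381. Its 3 atml1-3 libraries were all higher than its WT libraries, by a small margin for the lowest.

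The other members named for this comparison were AT1G21260, AT3G42052 and AT4G08110. AT1G21260, a short row with copia gag domains next to the wall-associated kinase gene WAK2, averaged 4.99 ± 0.635 CPM in atml1-3 and 2.82 ± 0.717 CPM in WT (SD, n = 3 each). AT1G21260 has 762 exonic bases, and its alignment with WAK2 spans 752 bases at 87.0% identity, which is nearly the whole row. None of the 50-base words of AT1G21260 occur elsewhere. Its 4 related genes together had 77, 217 and 57 counts in atml1-3 and 120, 36 and 168 in WT. Whether its reads came from related genes was not tested. AT3G42052, a gypsy-like row with 63 related genes, averaged 21.2 ± 2.29 CPM in atml1-3 and 15.6 ± 2.12 CPM in WT. Those 63 genes together had 587, 514 and 559 counts in atml1-3 and 400, 353 and 556 in WT. Of the words of AT3G42052, 6.77% occur elsewhere, and whether its reads came from related genes was not tested. AT4G08110, a row without a protein match, was lower, with 23.7 ± 3.37 CPM in atml1-3 and 29.9 ± 1.79 CPM in WT. The edgeR adjusted p-values of these members were 0.399, 0.381 and 0.419. All 6 MUSTANG or MULE members had negative log2 fold changes, from -0.29 to 0.00 when rounded, and none had an unadjusted p under 0.05.

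In gir1-1 against WT, 9 of the 89 members had an unadjusted edgeR p under 0.05 (10.11%), against 7.52% of all genes, with 3 higher against 3.36% and 6 lower against 4.16%. Leaving out 1 library gave 6 to 9 of the 89 (6.74% to 10.1%), against 4.93% to 8.75% of all genes in the same fits. Libraries did not overlap for 12 of the 89 (13.5%), against 10.5% of all genes. AT4G04410, the copia-like row at chr4:2189515-2193763, had CPM of 10.9, 17.4 and 19.3 in gir1-1 and 7.04, 6.19 and 5.17 in WT. All 3 gir1-1 libraries were above all WT libraries, and the log2 fold change was 1.37 ± 0.26 (SE) and the edgeR adjusted p 0.201, the smallest of the 89. DESeq2 gave it an adjusted p of 0.00155. Its 4 related genes had 0 counts in gir1-1 and 0, 3 and 2 counts in WT, and 1.02% of its words occur elsewhere. AT4G04415, the coding gene 397 bases downstream on the same strand, had 11, 8 and 10 counts in atml1-3, 3, 14 and 8 in gir1-1 and 5, 1 and 1 in WT.

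AT3G28160, a row without a protein match at chr3:10494656-10496791, had CPM of 3.11, 1.52 and 1.18 in gir1-1 and 7.10, 5.16 and 16.3 in WT. All gir1-1 libraries were lower, with a log2 fold change of -2.29 ± 0.51 and an edgeR adjusted p of 0.312, while DESeq2 gave an adjusted p of 0.00212. Without WT replicate 3, its highest library, the log2 fold change was -1.66. It lies 80695 bases from AT3G28315, a position looked up after both values were seen. For 18.5% of its words a copy exists elsewhere, so part of its reads are uncertain. In raw counts, AT3G28160 had 55, 25 and 24 in gir1-1 and 124, 85 and 277 in WT. Its 4 related genes together had 35, 27 and 30 counts in gir1-1 and 31, 35 and 56 in WT. The copia-like AT4G28900 had CPM of 8.71, 2.32 and 14.0 in gir1-1 and 18.5, 15.5 and 42.3 in WT, a log2 fold change of -1.60 ± 0.56 with an edgeR adjusted p of 0.563. A single gir1-1 library was far below and a single WT library far above the rest of its genotype. The log2 fold change was -2.20 without gir1-1 replicate 3 and -1.02 without WT replicate 3. The 7 related genes of AT4G28900 together had 943, 379 and 1195 counts in gir1-1 and 1013, 1758 and 2077 in WT, and 3.61% of its words occur elsewhere. These sums are close to the counts of 1 member, AT2G06950, so they do not describe 7 genes moving together. AT2G06950 had 937, 375 and 1184 counts in gir1-1 and 1000, 1755 and 2064 in WT. AT1G11150 averaged 7.44 ± 2.01 CPM in gir1-1 and 4.75 ± 1.17 CPM in WT, and MUG6 averaged 6.16 ± 0.778 CPM in gir1-1 and 8.91 ± 0.281 CPM in WT (SD, n = 3 each). Their edgeR adjusted p-values were 0.649 and 0.622.

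In atml1-3 against gir1-1, 14 of the 89 members had an unadjusted edgeR p under 0.05 (15.7%), against 7.35% of all genes, with 10 higher against 3.36% and 4 lower against 3.99%. Libraries did not overlap for 23 of the 89 (25.8%), against 15% of all genes. The count at an unadjusted p depended on atml1-3 replicate 1, without which it was 4 of 89 (4.49%), against 4.46% of all genes in the same fit. It was 8 of 89 without atml1-3 replicate 2, gir1-1 replicate 2 or gir1-1 replicate 3, against 6.37%, 9.43% and 5.6% of all genes. Without atml1-3 replicate 3 or gir1-1 replicate 1 it was 10 of 89 (11.2%), against 6.1% and 6.08% of all genes. The comparison shares its gir1-1 libraries with the one above, so members can be named in both for the same libraries. AT2G06950 had CPM of 152, 91.8 and 97.7 in atml1-3 and 53.0, 22.9 and 58.1 in gir1-1, a log2 fold change of 1.35 ± 0.38 (SE). Its edgeR adjusted p was 0.555 and its DESeq2 adjusted p 0.0490. Only 1.08% of its words occur elsewhere, and its 13 related genes had 351, 466 and 359 counts in atml1-3 and 293, 106 and 476 in gir1-1.

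AT3G28160 had CPM of 7.61, 9.35 and 5.19 in atml1-3, above the 3 gir1-1 values given above, with a log2 fold change of 1.93 ± 0.51 and an edgeR adjusted p of 0.477. AT4G04410 had CPM of 8.36, 6.94 and 5.97 in atml1-3, below all 3 gir1-1 libraries, with a log2 fold change of -1.16 ± 0.26 and an edgeR adjusted p of 0.257. For both members the atml1-3 libraries overlapped those of WT. AT4G01975, a row without a protein match, had CPM of 3.40, 3.57 and 3.82 in atml1-3 and 0.396, 2.56 and 0.835 in gir1-1, a log2 fold change of 1.51 ± 0.65 with an edgeR adjusted p of 0.671. Its gir1-1 libraries differed among themselves more than those of atml1-3, and the log2 fold change was 2.51 without gir1-1 replicate 2 and 1.08 without gir1-1 replicate 1. A higher-expressed gene on the same strand, AT4G02795 at 9.49 FPKM, ends within 500 bases upstream of it. The 15 related genes of AT4G01975 together had 80, 83 and 79 counts in atml1-3 and 33, 33 and 29 in gir1-1. Only 1.13% of its words occur elsewhere, and whether its reads came from related genes was not tested. AT1G47860, a long row with a hexokinase-like match, averaged 12.0 ± 4.43 CPM in atml1-3 and 5.97 ± 0.473 CPM in gir1-1 (SD, n = 3 each) with an edgeR adjusted p of 0.654, and 18.8% of its words occur elsewhere. Its 27 related genes together had 1884, 2172 and 1870 counts in atml1-3 and 2229, 1421 and 2112 in gir1-1. AT1G47860 itself had 1591 counts over all 9 libraries.

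**Figure D5:**
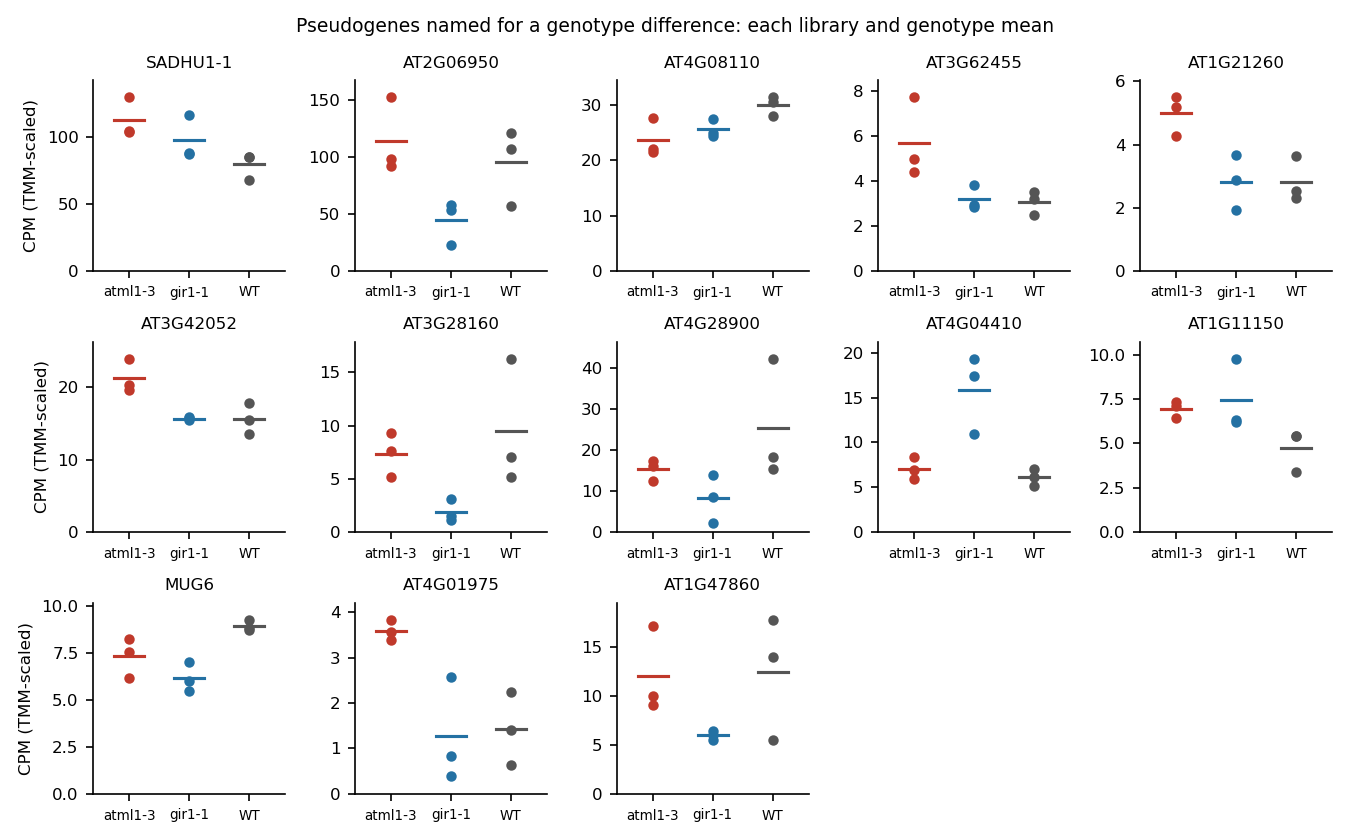
CPM after TMM scaling (vertical, from 0) for the 13 members other than AT3G28315 named for a genotype difference, with each library as a point and the genotype mean as a bar, for atml1-3, gir1-1 and WT from left to right. AT4G04410 lies at 10.9 CPM or more in gir1-1 and at 8.36 CPM or less elsewhere, and AT3G28160 lies at 3.11 CPM or less in gir1-1 and at 5.16 CPM or more elsewhere.

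Within most classes, members differed in direction. In atml1-3 against WT, all 6 MUSTANG or MULE members had negative log2 fold changes, as did 48 of the 89 members. The value of MUG5 was -0.0032 with an SE of 0.237, so its sign is not settled. The 2 members with gag-domain matches alone had positive log2 fold changes in this comparison. Among the 27 copia-like members other than AT3G28315, 16 had positive and 11 negative log2 fold changes in atml1-3 against WT, 17 positive and 10 negative in gir1-1 against WT, and 11 positive and 16 negative in atml1-3 against gir1-1. The class medians for copia were 0.09, 0.06 and -0.03 in that order. Across the genotypes, the highest genotype mean was a median of 1.36 times the lowest over the 89 members, beside 1.29 times over all genes tested and 1.27 times over the 15740 genes tested in the same range of mean CPM. It exceeded 2-fold for 13 of the 89 members (14.6%), against 12.0% of all genes tested and 8.77% of the genes in the same CPM range. That range runs from the lowest to the highest of the 89 members and does not match their level. The median of the mean CPM was 6.38 for the 89 members, 16.3 for all genes tested and 17.4 for the genes in the range.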

How the data were processed

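RNA-seq libraries of stage 12 sepals, 3 each of atml1-3, gir1-1 and WT, were analysed from 1 table. Per the file headers, the authors deposited raw read counts per gene, FPKM values, log2 fold changes, and p-values with adjusted p-values. FPKM served only for levels per length. Build TAIR10 is named in the submitters' processing notes; aligner, counting program and strand use are not given in the sources used here. Coordinates of all 90 members matched TAIR10.1 (RefSeq), from which sequences and 50-base words were read, with relatives from BLAST 2.17.0.

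The members, gene classes and named genes were chosen with earlier results of these data known. Counts were tested with edgeR 4.0.16 (R 4.3.3) quasi-likelihood F tests in 1 fit of 9 libraries with TMM scaling and filterByExpr, which kept 19174 genes and at least 99.88% of counts. P-values were Benjamini-Hochberg adjusted over all genes. The biological coefficient of variation was 0.301. CPM are TMM-scaled, and 3 counts were taken as the floor of a library. Alternatives used DESeq2 1.42.0, limma-voom (limma 3.58.1), other scalings, filters, memberships, a replicate block and single libraries left out. The tests and the word search were tested on simulated data or by exact search.

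Named besides AT3G28315 and AT3G43828 were the 12 members with the highest mean CPM, the 5 with the highest mean FPKM, the 2 rows on either side of the threshold, and in each comparison up to 6 members of largest fold change with an unadjusted p under 0.05 and no overlap of libraries. Within genotypes the chi-square per degree of freedom between libraries was 26.3 to 63.2, so each library counts as 1 replicate.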

Additional observations from a re-analysis of the deposited data

How the results depend on the processing

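The number of members with an adjusted p under 0.05 was 0 in each of the 3 comparisons with edgeR, and stayed 0 with median-of-ratios scaling, total counts, limma-voom, fits of 2 genotypes, both other membership thresholds and members with unshared sequence only. With the DESeq2 Wald test it was 0 for atml1-3 against WT, 3 for gir1-1 against WT (AT3G28315, AT4G04410 and AT3G28160) and 4 for atml1-3 against gir1-1 (the same members and AT2G06950); with no filter on low counts it was 1 in the last comparison (AT3G28315). The call of AT3G28315 restates its selection, and without it these counts are 2, 3 and 0. Leaving out each library gave 0 to 0 in every comparison, but moved the counts at an unadjusted p, over the 89 members other than AT3G28315, between 2 and 15 for atml1-3 against WT, 6 and 9 for gir1-1 against WT and 4 and 10 for atml1-3 against gir1-1. The share of all genes with such a p moved as well, between 7.35% and 15.3%, 4.93% and 8.75%, and 4.46% and 9.43% in the same order. Equal replicate numbers did not pair the libraries (correlations of deviations between -0.174 and 0.121), and the fit with the number as a replicate block gave 0 in each comparison. The difference in the members' share of counts between atml1-3 and WT, 0.00663 percentage points, became -0.000853 with TMM-scaled CPM, and that between gir1-1 and WT, -0.00477, became 0.00219 without WT replicate 3. The leave-one-out ranges were 0.00134 to 0.0136, -0.0101 to 0.00219 and 0.00749 to 0.0151 for atml1-3 against WT, gir1-1 against WT and atml1-3 against gir1-1. Of 195 recomputed fold changes of named members, 0 reversed. These members were named for libraries that do not overlap, so leaving out 1 library could hardly reverse a sign. The absence of reversals therefore supports nothing. Of the 195, 5 passed the threshold, all with DESeq2. The cause was not tested. Depth limits the rarest members: 3 counts correspond to 0.149 to 0.196 CPM.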
